A study of Homo sapiens with 6 samples.

Results

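The genes described are 8 matrix metalloproteinases other than the siRNA target, namely MMP1, MMP3, MMP9, MMP10, MMP11, MMP15, MMP16 and MMP17. They were taken by name: every probe set, a group of short probes read out as 1 signal, whose only gene symbol in the platform annotation is one of these 8 was included. That gave 13 of the 22283 probe sets, or 8 of the 11963 singly named genes. MMP16 has 4 probe sets, MMP11 has 3 and each of the others has 1. Their signals had been measured in HT1080 cells, an established line from a human fibrosarcoma, on 6 single-channel arrays in 3 groups of 2. The MT1-MMP siRNA group carried the pGUS vector expressing GFP together with an siRNA against the mRNA of MT1-MMP (gene MMP14). The alpha3 siRNA group carried the same vector with GFP and an siRNA against integrin alpha3 (gene ITGA3), and the mock group, titled GUS, carried the vector with GFP alone. All 3 groups therefore share the vector and GFP, and no untransfected cells are among them. The labels do not say how long after transfection RNA was taken, whether clones or pools were used, or whether both arrays of a group stem from cultures grown apart. The p-values therefore reflect array-to-array spread alone, and that spread could be technical. In such bulk RNA, fewer cells that make a transcript and less of it per cell cannot be told apart.

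Matrix metalloproteinases are zinc-dependent endopeptidases that are made as inactive precursors and cut extracellular matrix and cell surface proteins. MMP1 is the interstitial collagenase, and MMP3 and MMP10 are stromelysins, which cut proteoglycans, fibronectin and laminin and can activate other precursors. MMP9 is the larger of the gelatinases, MMP11 (stromelysin-3) is activated inside the cell by furin-like proteases, and MMP15, MMP16 and MMP17 are membrane-type enzymes like MT1-MMP itself. MMP15 and MMP16 span the membrane, while MMP17 is held by a lipid anchor. The collagenase, stromelysin and MMP9 genes are known as inducible genes that respond to cytokines, growth factors and AP-1 transcription factors in fibroblasts and tumour cells.

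In the RefSeq gene order of GRCh38.p14, MMP10, MMP1 and MMP3 are consecutive protein-coding genes on chromosome 11, in a row of 9 that runs from MMP7 to MMP13. The promoter of MMP10, the member whose mock arrays lay below both siRNA groups, is shown beside that of MMP11, whose groups differed little. Each is the 250 bases before the gene's start, 5′ to 3′ on the gene's strand, from RefSeq (GRCh38.p14). Promoter sequences were matched for 3 of the 8 members, MMP10, MMP11 and MMP15. The MMP10 region is chr11:102780629-102780878 on the minus strand, with matches to 3 motifs in capitals. TGANTCA is of the type that AP-1 factors bind. TATAAA is the element that places the transcription machinery at many inducible genes. AGGAA is the core of sites for ETS factors and reads TTCCT where it lies on the opposite strand. The MMP11 region is chr22:23772599-23772848 on the plus strand, with capitals for the SP1 motif GGGCGG.
MMP10: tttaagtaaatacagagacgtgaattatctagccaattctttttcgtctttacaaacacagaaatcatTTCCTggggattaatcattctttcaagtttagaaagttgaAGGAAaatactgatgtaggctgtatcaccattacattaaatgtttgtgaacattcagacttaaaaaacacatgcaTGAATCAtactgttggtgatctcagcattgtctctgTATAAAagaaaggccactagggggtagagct
MMP11: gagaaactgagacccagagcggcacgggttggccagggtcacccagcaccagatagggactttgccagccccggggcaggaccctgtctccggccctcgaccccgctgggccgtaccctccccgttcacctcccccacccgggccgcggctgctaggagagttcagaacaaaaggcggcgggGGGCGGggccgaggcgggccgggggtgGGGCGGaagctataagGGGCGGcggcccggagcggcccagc
The MMP10 promoter has a GC content of 34.4%, with TATAAA starting 31 bases and TGAATCA starting 67 bases before the start. The MMP11 promoter has a GC content of 73.2%, holds 3 copies of GGGCGG and neither TGANTCA nor TATAAA. The MMP15 promoter, at 74.8% GC with 5 copies of GGGCGG on either strand, likewise holds neither of these. Over 35116 RefSeq promoters of the same length the median GC content was 58%, and on either strand 6.57% held TGANTCA, 10.7% TATAAA, 56.8% AGGAA and 42.6% GGGCGG. No searched motif overlapped another as capitalised. A match of letters is a description and not a binding site.

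The targets had their lowest mean in the group that carried their siRNA. The brightest MMP14 probe set had 812 and 717 on the MT1-MMP siRNA arrays, 999 and 1804 on the alpha3 siRNA arrays, and 1971 and 3064 on the mock arrays. ITGA3 had 148 and 347 on the alpha3 siRNA arrays against 1139 and 1290 on the mock arrays, but neither target passed the threshold against mock (limma adjusted p = 0.139 for MMP14 with MT1-MMP siRNA and 0.136 for ITGA3 with alpha3 siRNA). Between the siRNA groups ITGA3 passed, with 1481 and 1634 on the MT1-MMP siRNA arrays against the alpha3 siRNA values above (log2 fold change 2.6, limma adjusted p = 0.0232). All 8 mesenchymal markers lay above the filter on dim genes, with summed signals of 41045 to 50741 with MT1-MMP siRNA, 29893 to 34435 with alpha3 siRNA, and 30221 to 35836 in mock. None of 7 epithelial markers passed, with sums of 75.3 to 123, 86.5 to 86.9, and 97.3 to 179 in the same order of groups. Of 7 leukocyte markers 3 passed (CD3E, ITGAM and MS4A1, each between 50.1 and 107), which shows how bright a probe set for a gene foreign to this line can be here, while PTPRC did not exceed 21.9. The 18 hybridisation control probe sets stood at median folds of 2.30 and 1.29 over the mock mean on the MT1-MMP siRNA arrays, 0.812 and 0.841 on the alpha3 siRNA arrays, and 0.927 and 1.07 on the mock arrays. Across genes, r was 0.970 between alpha3 siRNA replicate 2 and mock replicate 1, above the 0.952 to 0.965 found within the groups. The part of these differences in the members' results was not tested.

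No member was called in any comparison, although several had arrays that separated the groups. Fold changes are of log2(signal + 32), which understates changes of dim genes, and a gene is called at a limma p under 0.05 after Benjamini-Hochberg adjustment over all genes. The filter keeps probe sets whose mean signal on this scale is above the 40th percentile, equal to a signal of 47.5. It kept 5 of the 13 probe sets, 1 each of MMP3, MMP9, MMP11, MMP16 and MMP17, whose adjusted p-values are over 8045 genes. MMP1, MMP10 and MMP15 fell below it, so their p-values come from the fit of all 11963 genes. No detection calls were used here, so whether these dim signals lie above background is not known. The same holds for MMP11 and MMP16, whose signals did not exceed the 107 that the leukocyte marker CD3E reached. It also holds for MMP17 on every array but MT1-MMP siRNA replicate 1. For MMP3 it holds on both MT1-MMP siRNA arrays (48.6 and 72.4) and on mock replicate 1 (99.3).

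**Figure D1:**
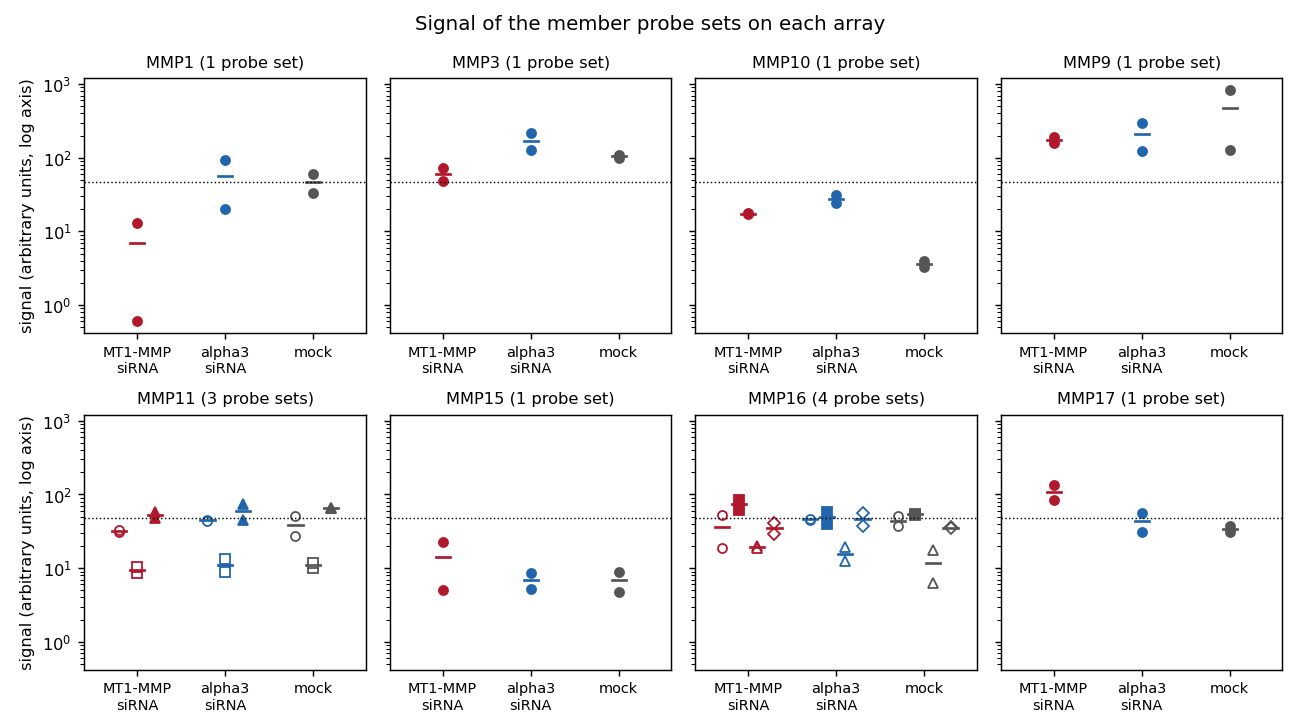
Signal of each member probe set on each array (arbitrary units, log axis) in the MT1-MMP siRNA, alpha3 siRNA and mock groups. Each point is 1 array, short bars are the means of 2 arrays, marker shapes separate probe sets, filled markers are the brightest probe set of a gene, and the dotted line is the filter at a signal of 47.5. MMP10 lies between 3.3 and 31.2 on every array, under the line.

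The collagenase MMP1 was dimmest with MT1-MMP siRNA. MMP1 (probe set 204475_at) had signals of 0.6 and 13.2 on the MT1-MMP siRNA arrays, 92.1 and 20 on the alpha3 siRNA arrays, and 60 and 32.8 on the mock arrays. Both MT1-MMP siRNA arrays lay below the other 4, while the alpha3 siRNA arrays spanned the mock pair. The mean was 6.9 ± 8.9 with MT1-MMP siRNA, 56.1 ± 51.0 with alpha3 siRNA and 46.4 ± 19.2 in mock (SD, n = 2 each). The log2 fold change with MT1-MMP siRNA against mock was -1.0 (SE 0.41, 95% interval -1.95 to -0.045, limma adjusted p = 0.422), and that against alpha3 siRNA was -1.06 (SE 0.41, adjusted p = 0.241). These values rest on signals under the filter: with an offset of 1 in place of 32 they were -3.09 and -3.05, and with an offset of 100 the first was -0.45. For alpha3 siRNA against mock the log2 fold change was 0.057 (adjusted p = 0.994), but either alpha3 siRNA array moved it, to -0.57 when replicate 1 was left out and to 0.68 when replicate 2 was. Leaving out replicate 1 put MMP1 at -0.43 for MT1-MMP siRNA against alpha3 siRNA, and leaving out replicate 2 put it at -1.68.

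The stromelysin MMP3 was lower than mock on both MT1-MMP siRNA arrays and higher on both alpha3 siRNA arrays. MMP3 (205828_at) had 48.6 and 72.4 on the MT1-MMP siRNA arrays, 214 and 127 on the alpha3 siRNA arrays, and 99.3 and 110.0 on the mock arrays. The groups did not overlap in any pair, with means of 60.5 ± 16.8 in the MT1-MMP siRNA group, 171 ± 61.5 in the alpha3 siRNA group and 105 ± 7.6 in mock (SD, n = 2 each), so that mock lay in the middle. None of the 3 differences passed the threshold. MT1-MMP siRNA against alpha3 siRNA gave the lowest adjusted p of any member, with a log2 fold change of -1.11 (SE 0.27, 95% interval -1.73 to -0.49, limma adjusted p = 0.0725). Both MT1-MMP siRNA signals and that of mock replicate 1 lay under the 107 that the leukocyte marker CD3E reached, so no fold of the signals is given. Against mock the log2 fold change was -0.57 with MT1-MMP siRNA (SE 0.27, limma adjusted p = 0.372) and 0.54 with alpha3 siRNA (SE 0.27, adjusted p = 0.863). With alpha3 siRNA against mock it stood at 0.22 without alpha3 siRNA replicate 1 and at 0.85 without replicate 2. Over the 16 alternatives the difference between the siRNAs lay between -1.46 and -0.74 and did not pass the threshold in any. As the siRNA arrays did not overlap, leaving out 1 array or changing the offset could not turn its sign.

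MMP10, the other stromelysin, was higher than mock with both siRNAs, all at dim signals. MMP10 (205680_at) had 17.0 and 17.8 on the MT1-MMP siRNA arrays, 24.0 and 31.2 on the alpha3 siRNA arrays, and 3.3 and 4.0 on the mock arrays. The 3 groups did not overlap, with means of 17.4 ± 0.57 in the MT1-MMP siRNA group, 27.6 ± 5.1 in the alpha3 siRNA group and 3.65 ± 0.49 in mock (SD, n = 2 each), so that mock was lowest. Genes foreign to this line had signals over the same range, such as the leukocyte markers PTPRC (3.2 to 21.9) and CD14 (2.1 to 25.2), so MMP10 is not shown to lie above background and no fold of its signals is given. On the damped log2 scale the change was 0.47 with MT1-MMP siRNA (SE 0.17, 95% interval 0.074 to 0.87, limma adjusted p = 0.375) and 0.74 with alpha3 siRNA (SE 0.17, 95% interval 0.34 to 1.14, adjusted p = 0.876). With an offset of 1 they were 1.99 and 2.61, again not past the threshold (limma adjusted p = 0.293 and 0.705). Leaving out any 1 array kept MT1-MMP siRNA between 0.46 and 0.48 and alpha3 siRNA between 0.65 and 0.83. The 2 comparisons share the mock arrays, so the low mock signals enter both.

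The 3 neighbours on chromosome 11 thus did not all have their lowest mean signal in the same group, though none of their differences was called. MMP1 and MMP3 were both lowest with MT1-MMP siRNA, whereas MMP10 was lowest in mock. Across the 6 arrays, the Pearson correlation of MMP1 with MMP3 on the log2 scale was 0.855, a description that shares arrays and scaling between the genes. MMP1 correlated at 0.838 with the brightest probe set of MMP11, a gene on chromosome 22. Within the chromosome 11 row, MMP10 correlated at -0.176 with MMP1 and at 0.251 with MMP3. Of the other 6 genes in this row, MMP8 (neutrophil collagenase) had 38.7 and 40.6 on the MT1-MMP siRNA arrays, 10.2 and 37.6 on the alpha3 siRNA arrays, and 54.2 and 69.9 on the mock arrays, so that both siRNA groups lay below mock. MMP7 (matrilysin) had 95.9 and 68.8, 77.1 and 63.1, and 43.0 and 48.0 in the same order of groups, so that both lay above it. MMP12 (macrophage elastase) had 19.0 and 29.1 with MT1-MMP siRNA against 45.0 and 41.1 in mock. MMP13 did not exceed 7.7 on any array, and MMP20 and MMP27 did not exceed 25.5 and 73.6. None of these was called in the fit of all genes. All their signals lay under the 107 that the leukocyte marker CD3E reached, so they are not shown to lie above background.

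For the gelatinase MMP9, the 2 mock arrays lay farther apart than either siRNA pair. MMP9 (203936_s_at) had 191 and 158 on the MT1-MMP siRNA arrays, 292 and 124 on the alpha3 siRNA arrays, and 127 and 832 on the mock arrays. All siRNA arrays but the lower of the alpha3 siRNA pair lay between the mock arrays, and no pair of groups separated. The means were 175 ± 23.3 with MT1-MMP siRNA, 208 ± 119 with alpha3 siRNA and 479 ± 498 in mock (SD, n = 2 each). The log2 fold change was -0.85 with MT1-MMP siRNA (SE 0.68, 95% interval -2.40 to 0.71, limma adjusted p = 0.604) and -0.72 with alpha3 siRNA (SE 0.68, 95% interval -2.28 to 0.83, adjusted p = 0.915). Without mock replicate 2 these turned to 0.38 and 0.50, and without mock replicate 1 they were -2.07 and -1.94. MT1-MMP siRNA against alpha3 siRNA, which does not use the mock arrays, gave -0.12 (95% interval -1.68 to 1.43, limma adjusted p = 0.934). These intervals hold changes of more than 1 log2 unit in both directions for the last comparison, so MMP9 cannot be called alike in the groups.

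MMP11 showed small differences on each of its 3 probe sets. The brightest (203878_s_at) had 47.8 and 57.8 on the MT1-MMP siRNA arrays, 73.6 and 45.0 on the alpha3 siRNA arrays, and 65.7 and 65.1 on the mock arrays. Both MT1-MMP siRNA arrays lay under both mock arrays, and the alpha3 siRNA arrays lay on either side of them. Its log2 fold change was -0.20 with MT1-MMP siRNA (SE 0.26, 95% interval -0.79 to 0.38, limma adjusted p = 0.756) and -0.11 with alpha3 siRNA (95% interval -0.70 to 0.48, adjusted p = 0.965). The second probe set (203876_s_at) had 31.2 and 33.1, 45.4 and 43.9, and 27.7 and 50.4 in the same order of groups. The third (203877_at) stayed between 8.6 and 13.3 on all 6 arrays. With MT1-MMP siRNA against mock all 3 probe sets lay below 0, from -0.20 to -0.048.

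The membrane-type enzyme MMP17 was brightest with MT1-MMP siRNA. MMP17 (206234_s_at) had 133 and 84.0 on the MT1-MMP siRNA arrays, 55.9 and 31.1 on the alpha3 siRNA arrays, and 37.8 and 30.8 on the mock arrays. Both MT1-MMP siRNA arrays lay above the other 4, and the alpha3 siRNA and mock arrays overlapped. The means were 109 ± 34.8 in the MT1-MMP siRNA group, 43.5 ± 17.5 in the alpha3 siRNA group and 34.3 ± 4.9 in mock (SD, n = 2 each). The alpha3 siRNA and mock means lay under the filter signal of 47.5, and the leukocyte marker CD3E reached 107. MMP17 is therefore not shown to lie above background in these groups or on MT1-MMP siRNA replicate 2 (84.0), and no fold of its signals is given. The log2 fold change was 1.06 against mock (SE 0.29, 95% interval 0.40 to 1.72, limma adjusted p = 0.199) and 0.89 against alpha3 siRNA (SE 0.29, 95% interval 0.23 to 1.55, adjusted p = 0.121). MMP17 passed the filter only through the MT1-MMP siRNA arrays, so that its being among the tested genes already leans on that group. Leaving out 1 array moved the change against mock between 0.81 and 1.32. With alpha3 siRNA against mock MMP17 stood at 0.17 (limma adjusted p = 0.954), and at -0.069 without alpha3 siRNA replicate 1.

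Of the membrane-spanning members, MMP15 separated no pair of groups on its only probe set, and MMP16 separated groups on some probe sets and not on others. MMP15 (203365_s_at) had 22.8 and 5.1 on the MT1-MMP siRNA arrays, 8.5 and 5.2 on the alpha3 siRNA arrays, and 4.7 and 9.0 on the mock arrays, all under the filter. Its log2 fold change was 0.22 with MT1-MMP siRNA (limma adjusted p = 0.772) and was -0.064 without MT1-MMP siRNA replicate 1. The brightest MMP16 probe set (207013_s_at) had 85.3 and 61.3 on the MT1-MMP siRNA arrays, 40 and 57.7 on the alpha3 siRNA arrays, and 54.5 and 53.1 on the mock arrays. The MT1-MMP siRNA arrays lay above the other 4, with a log2 fold change of 0.29 against mock (SE 0.25, limma adjusted p = 0.646) and 0.38 against alpha3 siRNA (adjusted p = 0.404). The 4 probe sets of MMP16 disagreed in sign, from -0.21 (207012_at) to 0.29 with MT1-MMP siRNA against mock and from -0.094 to 0.21 (208167_s_at) with alpha3 siRNA against mock. Probe set 208166_at had 19.9 and 18.5 on the MT1-MMP siRNA arrays against 6.3 and 17.5 on the mock arrays, which did not overlap. Probe set 208167_s_at had 36.9 and 56.8 on the alpha3 siRNA arrays against 35.8 and 35.2 on the mock arrays, which did not overlap either. For MMP16 the direction of each comparison therefore depends on the probe set.

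**Figure D2:**
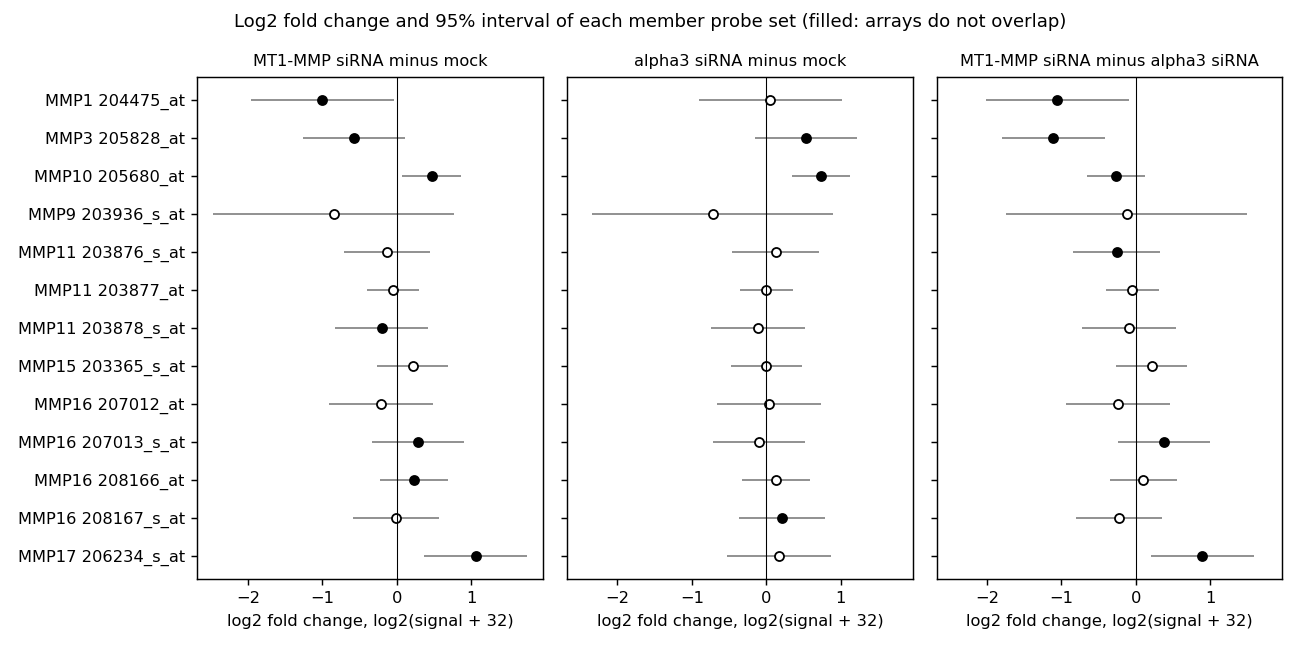
Log2 fold change of log2(signal + 32) for each of the 13 member probe sets in the 3 comparisons, with 95% intervals from limma fitted to every singly named probe set without a filter. Filled points have arrays that do not overlap between the groups, which holds for 7, 3 and 6 probe sets from left to right.

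Over the 13 probe sets, 0 passed in limma fitted to every singly named probe set, where 0% of 19065 probe sets passed with MT1-MMP siRNA against mock and 0.00525% in each of the other comparisons. At an unadjusted p under 0.05 there were 3 for MT1-MMP siRNA against mock (MMP1, MMP10 and MMP17), where 10.4% of all probe sets did. There was 1 for alpha3 siRNA against mock (MMP10), where 5.07% did, and 3 for MT1-MMP siRNA against alpha3 siRNA (MMP1, MMP3 and MMP17), where 16.2% did. Arrays did not overlap for 7 of the 13 with MT1-MMP siRNA against mock, where 43.2% of all probe sets did not. They did not overlap for 3 with alpha3 siRNA against mock (32.4% of all) and for 6 with MT1-MMP siRNA against alpha3 siRNA (45% of all), so these counts lie near the background. The median log2 fold change of the 13 was -0.048, 0.057 and -0.12 in these comparisons, against 0.014, 0.018 and -0.0069 over all probe sets. In the fit with the filter, 0 of the 5 members tested were called, where 0%, 0.0249% and 1.39% of 8045 genes were.

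**Figure D3:**
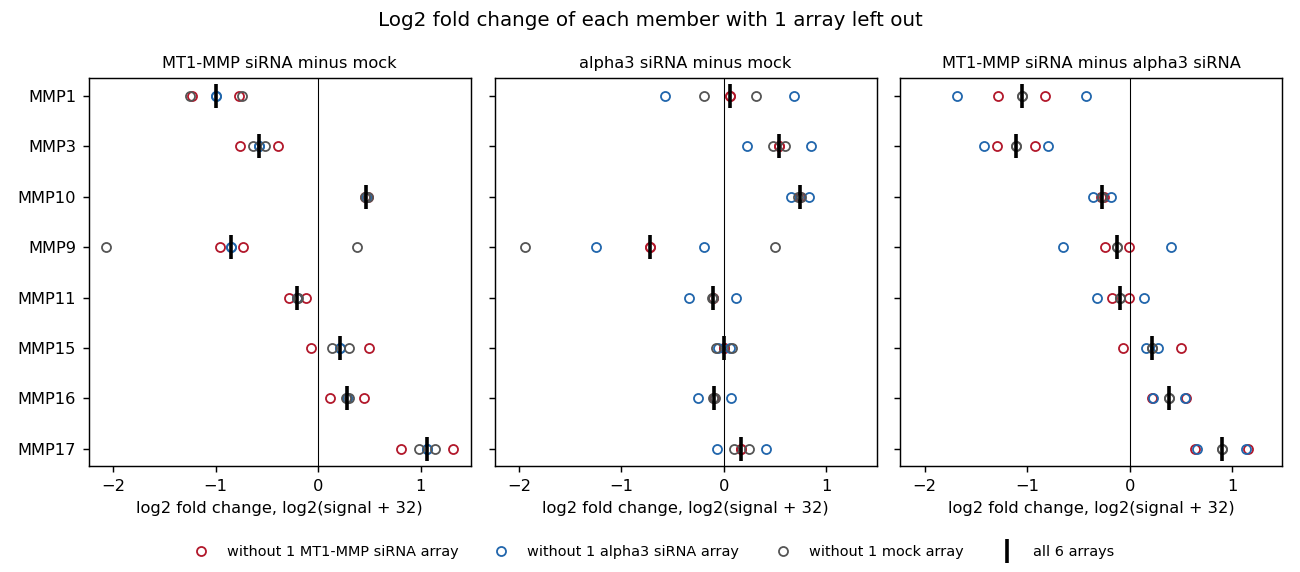
Log2 fold change of each member with 1 array left out (open circles, coloured by the group of the missing array) and with all 6 arrays (black bars), for the 3 comparisons. MMP9 against mock ranges from -2.07 to 0.38 with MT1-MMP siRNA and from -1.94 to 0.50 with alpha3 siRNA, both ends coming from the mock arrays, while MMP10 with MT1-MMP siRNA stays between 0.46 and 0.48.

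For each member above the filter, the 3 genes whose log2 signals correlated most closely with it over the 6 arrays were taken from the other 8044 genes. With 6 arrays and 3 groups such correlations are high for many genes and are given as a description. MMP3 was followed most closely by DNAJC2 (Pearson r = 0.997), a ribosome-associated chaperone, with 397 and 502 on the MT1-MMP siRNA arrays, 885 and 657 on the alpha3 siRNA arrays, and 589 and 617 on the mock arrays. PSME3IP1 (r = 0.992) and TMEM14B (r = 0.989) came next, and 186 genes had an r above 0.9 with MMP3. For MMP9 the closest were TMEM50B (r = 0.982), the retinoic acid receptor RARG (0.979) and the nuclear body protein PML (0.961), each brightest on mock replicate 2. RARG had 81.1 and 70.3 on the MT1-MMP siRNA arrays, 99.6 and 49.6 on the alpha3 siRNA arrays, and 58.6 and 157 on the mock arrays. For MMP17 they were BCKDHA (r = 0.991), a subunit of branched-chain keto acid dehydrogenase, the endothelin-converting enzyme ECE1 (0.986) and the matricellular protein SPARC (0.985). MMP11 was followed by MAPK8IP1 (0.984), PLIN3 (0.964) and THYN1 (0.951). The brightest MMP16 probe set was followed by DAO (0.993), the metallothionein MT2A (0.991) and GALNT11 (0.986).

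Among the other 15 metalloproteinase genes listed, which include the target MMP14, 13 were on the array and 8 passed the filter. None of the 8 was called by limma in any comparison, where 0%, 0.0249% and 1.39% of all genes were. At an unadjusted p under 0.05 there were 2 with MT1-MMP siRNA against mock (14.4% of all genes), 1 with alpha3 siRNA against mock (5.73%) and 2 between the siRNAs (23.4%). The target MMP14 is in each of these counts, and MMP2 is the other gene in the first and the last. With MT1-MMP siRNA against mock their median log2 fold change was 0.21 with 6 of the 8 above 0, where the median over all 8045 genes was 0.0024. MMP2, the gelatinase whose precursor MT1-MMP activates, had 1271 and 1066 on the MT1-MMP siRNA arrays against 430 and 672 on the mock arrays (limma adjusted p = 0.220). MMP19 had 161 and 99.0 on the MT1-MMP siRNA arrays against 88.1 and 93.2 on the mock arrays. MMP25, a lipid-anchored relative of MMP17, had 168 and 129 on the MT1-MMP siRNA arrays, 91.5 and 108 on the alpha3 siRNA arrays, and 115 and 130 on the mock arrays. Its alpha3 siRNA arrays lay under both mock arrays, with a log2 fold change of -0.23 (limma adjusted p = 0.915).

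Of the 9 listed inhibitors of these enzymes, 6 were measured. All 6 had values above 0 with MT1-MMP siRNA against mock, with a median log2 fold change of 0.58, and limma called 0 (3 at an unadjusted p under 0.05), where 0% of all genes were called and 14.4% had such a p. RECK, a membrane-anchored inhibitor of several metalloproteinases, had 336 and 279 on the MT1-MMP siRNA arrays, 250 and 170 on the alpha3 siRNA arrays, and 123 and 165 on the mock arrays. Both siRNA groups lay above mock, at 0.96 (limma adjusted p = 0.180) for MT1-MMP siRNA and 0.45 (adjusted p = 0.864) for alpha3 siRNA on the log2 scale. SPOCK1, a testican proteoglycan, had 1012 and 682, 1363 and 771, and 529 and 414 in the same order of groups. With MT1-MMP siRNA against alpha3 siRNA, where 1.39% of all genes were called, 1 of the 6 rose. This was TIMP3, a matrix-bound inhibitor, with 478 and 527 on the MT1-MMP siRNA arrays against 106 and 54.5 on the alpha3 siRNA arrays (log2 fold change 2.29, SE 0.33, limma adjusted p = 0.0287). TIMP1, another tissue inhibitor, had 3387 and 2530 on the MT1-MMP siRNA arrays against 1982 and 2067 on the alpha3 siRNA arrays (limma adjusted p = 0.170). Its mock arrays, at 2018 and 2544.5, overlapped both siRNA groups. SPOCK2, a second testican, differed little, with 106 and 103 on the alpha3 siRNA arrays against 107 and 107 on the mock arrays.

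The activation cascade list holds plasminogen and proprotein convertase genes with related proteases, receptors and inhibitors, and 13 of 18 listed genes were measured. One of them, SERPINE2, is a serpin that inhibits serine proteases and is not an enzyme that processes precursors. It had 965 and 900 on the mock arrays. With MT1-MMP siRNA against mock its log2 fold change was 2.11 (SE 0.22, limma adjusted p = 0.0537), which did not pass. SERPINE2 rose with MT1-MMP siRNA against alpha3 siRNA, with 5107 and 3337 against 1573 and 1558 (log2 fold change 1.38, SE 0.22, limma adjusted p = 0.0312), and it was the only gene of this list called in the 3 comparisons, 1 of 13 where 1.39% of all genes were called between the siRNAs. This call held in 1 of the 6 fits that left out an array. PLAT, tissue plasminogen activator, had 4853 and 2230 on the MT1-MMP siRNA arrays, 866 and 997 on the alpha3 siRNA arrays, and 378 and 1683 on the mock arrays (log2 fold change 1.99 with MT1-MMP siRNA against mock, SE 0.60, limma adjusted p = 0.220). CTSB, the lysosomal protease cathepsin B, had 6332 and 3850 on the MT1-MMP siRNA arrays against 1849 and 2173 on the alpha3 siRNA arrays (limma adjusted p = 0.0875). Its mock arrays, at 2351 and 4869, overlapped the MT1-MMP siRNA arrays and lay above both alpha3 siRNA arrays. PCSK7, a furin-like convertase, had 139 and 149 on the MT1-MMP siRNA arrays, 198 and 185 on the alpha3 siRNA arrays, and 254 and 206 on the mock arrays, so that both siRNA groups lay below mock. Against mock, the list's median log2 fold change was 0.11 in the MT1-MMP siRNA group and 0.0039 in the alpha3 siRNA group.

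Of the transcription regulators of metalloproteinase genes, 19 of 26 listed genes were measured and limma called 0 in any comparison. At an unadjusted p under 0.05 there were 3 of the 19 with MT1-MMP siRNA against mock, where 14.4% of all genes were, 4 with alpha3 siRNA against mock, where 5.73% were, and 1 between the siRNAs, where 23.4% were. Against mock, their median log2 fold change was -0.15 in the MT1-MMP siRNA group and -0.13 in the alpha3 siRNA group. With MT1-MMP siRNA against mock, arrays did not overlap for 5 regulators that were higher and 7 that were lower. Over all probe sets without a filter, 43.2% did not overlap. Among the lower were the AP-1 subunits JUN, with 626 and 687 against 965 and 788, and FOSL1, with 1607 and 2132 against 2507 and 2295. The AP-1 subunit JUND had 759 and 998 on the MT1-MMP siRNA arrays, 1006 and 590 on the alpha3 siRNA arrays, and 320 and 589 on the mock arrays (limma adjusted p = 0.268 for the first group and 0.855 for the second, each against mock). ATF3, a stress-induced partner of AP-1, had 112 and 143, 167 and 139, and 78.7 and 73.3, so that both siRNA groups lay above mock. FOSL2, another AP-1 subunit, had 267 and 218 with MT1-MMP siRNA against 417 and 395 on the alpha3 siRNA arrays (a log2 difference of -0.68, SE 0.22, limma adjusted p = 0.122). Its mock arrays had 230 and 324. SNAI2, a repressor of epithelial genes, had 195 and 481 with alpha3 siRNA against 755 and 685 in mock (-1.14, SE 0.34, limma adjusted p = 0.847). TWIST1, a factor of mesenchymal cells, had 185 and 148 on the MT1-MMP siRNA arrays against 93.0 and 86.8 on the mock arrays (limma adjusted p = 0.260). CEBPB had 2521 and 2362 on the MT1-MMP siRNA arrays against 2117 and 1367 on the alpha3 siRNA arrays (limma adjusted p = 0.234). Its mock arrays had 1870 and 2404.

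Of the ligands that induce these genes, 13 of 18 were measured. TGFA, a ligand of the epidermal growth factor receptor, rose with MT1-MMP siRNA against alpha3 siRNA. It was the 1 gene of the 13 called there, where 1.39% of all genes were called. TGFA had 2194 and 2023 on the MT1-MMP siRNA arrays, 821 and 456 on the alpha3 siRNA arrays, and 522 and 534 on the mock arrays. Its log2 fold change was 1.73 against alpha3 siRNA (SE 0.26, limma adjusted p = 0.0298) and 1.93 against mock (SE 0.26, adjusted p = 0.0537), which did not pass. IL1A, interleukin 1 alpha, had 102 and 221 on the MT1-MMP siRNA arrays, 138 and 52.8 on the alpha3 siRNA arrays, and 36.7 and 63.0 on the mock arrays, with a log2 fold change of 1.19 for MT1-MMP siRNA against mock (limma adjusted p = 0.261). The largest change in the list against mock ran the other way. CXCL8, interleukin 8, had 505 and 270 on the MT1-MMP siRNA arrays, 101 and 181 on the alpha3 siRNA arrays, and 795 and 1647 on the mock arrays, so that both siRNA groups lay below mock. Its log2 fold change was -1.55 for MT1-MMP siRNA (SE 0.40, limma adjusted p = 0.186) and -2.81 for alpha3 siRNA (SE 0.40, adjusted p = 0.136), and neither passed. TGFB1 had 1042 and 1078, 959 and 793, and 358 and 781 in the same order of groups, above mock with both siRNAs. PDGFA, a chain of platelet-derived growth factor, had 271 and 184 on the alpha3 siRNA arrays against 156 and 101 on the mock arrays. HBEGF, like TGFA a ligand of the epidermal growth factor receptor, had 549 and 674 with MT1-MMP siRNA against 857 and 1766 with alpha3 siRNA.

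Among 11 measured receptors of the 15 listed, limma called 1 between the siRNAs, where 1.39% of all genes were called. This was TGFBR2, the type II receptor of transforming growth factor beta, which rose with MT1-MMP siRNA against alpha3 siRNA. It had 3846 and 2993 on the MT1-MMP siRNA arrays, 1468 and 1452 on the alpha3 siRNA arrays, and 2386 and 3583 on the mock arrays (log2 fold change 1.20, SE 0.23, limma adjusted p = 0.0475). Against mock its alpha3 siRNA value was -0.99 (SE 0.23, limma adjusted p = 0.714). IL1R1, the interleukin 1 receptor, had 16.9 and 19.0 on the MT1-MMP siRNA arrays, 129 and 43.5 on the alpha3 siRNA arrays, and 52.4 and 98.0 on the mock arrays. F2R, the thrombin receptor, had 179 and 111, 78.3 and 23.9, and 45.5 and 62.0 in the same order of groups (log2 fold change 1.03 for MT1-MMP siRNA against mock, limma adjusted p = 0.265). TNFRSF1A, a tumour necrosis factor receptor, had 2040 and 1548 on the MT1-MMP siRNA arrays against 1256 and 947 on the mock arrays. The cytokine receptors IL6ST and OSMR had lower signals on both alpha3 siRNA arrays than on both mock arrays, at -0.65 (limma adjusted p = 0.851) and -0.50 (adjusted p = 0.870). For IL1R1 both MT1-MMP siRNA arrays lay below the other 4 (log2 fold change -1.07 against mock, SE 0.39, limma adjusted p = 0.279). The same held for MMP1 and MMP3, and also for PCSK7, HBEGF and the target MMP14 among the listed genes. How many of all genes have this pattern was not counted. IL1R1 exceeded the 107 that the leukocyte marker CD3E reached only on alpha3 siRNA replicate 1. The calls of TIMP3, SERPINE2, TGFA and TGFBR2 depended on single arrays. With 1 array left out the call held in 3 of 6 fits for TIMP3 and TGFA, in 2 for TGFBR2 and in 1 for SERPINE2, while the log2 fold changes stayed at 1.02 or above. All 4 calls were lost without either MT1-MMP siRNA array or without alpha3 siRNA replicate 2 (limma adjusted p from 0.0669 to 0.268). Those of SERPINE2 and TGFBR2 were also lost without alpha3 siRNA replicate 1 (0.0658 and 0.0846), and that of SERPINE2 without mock replicate 1 (0.0514). Over all 16 alternatives the call was lost in 4 for TIMP3, 5 for TGFA, 6 for SERPINE2 and 10 for TGFBR2. Without the filter none of the 4 passed (limma adjusted p from 0.0600 to 0.0857), and with its probe sets averaged TGFA stood at 1.14 (adjusted p = 0.0600). TGFBR2 was also not called with a shared 75th percentile, an offset of 1, averaged probe sets, no trend or the replicate block (limma adjusted p from 0.0505 to 0.0690).

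**Figure D4:**
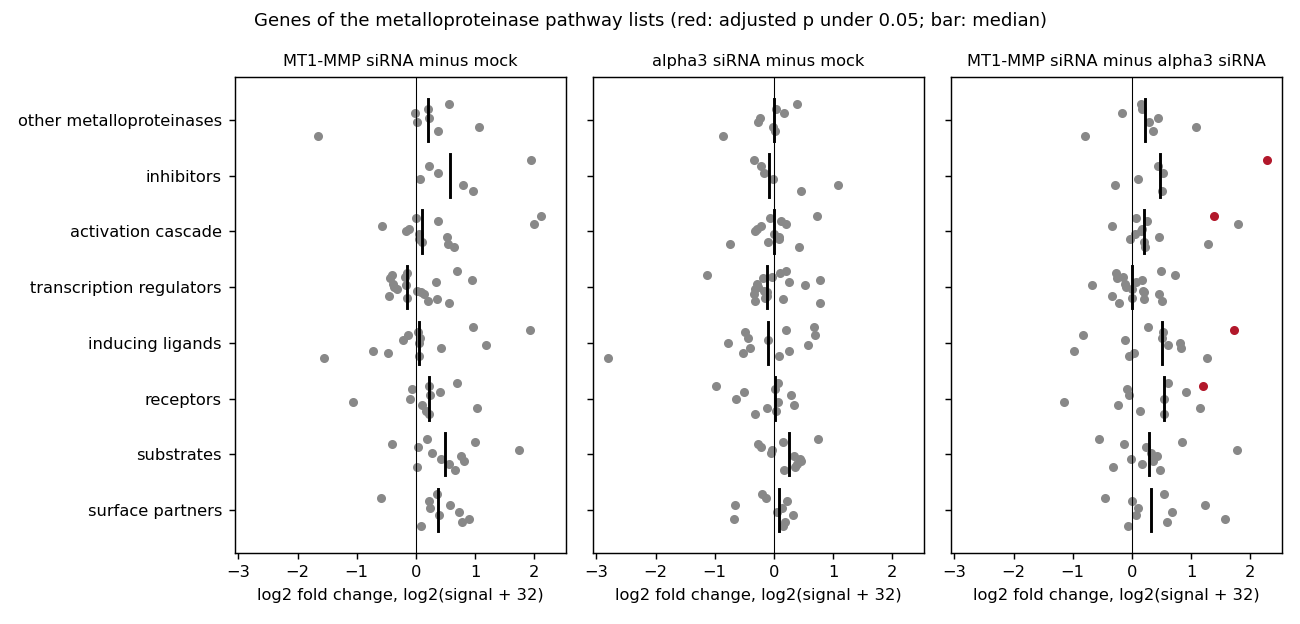
Log2 fold change of log2(signal + 32) of the measured genes of 8 lists around the metalloproteinases in the 3 comparisons. Each point is 1 gene, red points have a limma adjusted p under 0.05 over 8045 genes, and black bars are list medians. Red points appear only in the comparison of MT1-MMP siRNA with alpha3 siRNA and are TIMP3, SERPINE2, TGFA and TGFBR2.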

How the data were processed

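Single-channel oligonucleotide array values of HT1080 cells were analysed, with 6 arrays in 3 groups taken from the sample titles. The authors deposited 1 intensity per probe set on a linear scale. On each array these values had a 96% trimmed mean of 250.1, so scaling to a common mean preceded deposit. The summarisation software is not given in the sources used here. Of the 22283 probe sets, 19065 had 1 gene symbol, 1043 several, 2107 none, and 68 were controls.

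Values under 1 were set to 1, log2(value + 32) was taken, probe sets above the 40th percentile were kept, and the brightest probe set stood for each gene. limma 3.58.1 in R 4.3.3 fitted 3 group means with an intensity trend (3 residual and 5.35 prior degrees of freedom), with Benjamini-Hochberg adjustment. The fit was tested on simulated data. An exact permutation test of 2 arrays against 2 cannot go below 0.333 and was not used. The number of arrays limits the precision. Correlations were Pearson's. Figures were drawn with matplotlib 3.10.9.

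Named genes were the 8 members, both targets, the 3 closest correlates of each member above the filter, and, from 8 lists, genes called or up to 3 per comparison with the largest change among those whose arrays did not overlap. MMP8, MMP12, MMP13, MMP19, MMP20, MMP27, JUN and FOSL1 were named after their values were seen. Members and lists were chosen with earlier results of these data known. The settings varied were the scaling (quantile, or to a shared 75th percentile), the offset (1 or 100), the filter (none, or the 60th percentile) and the probe sets (averaged per gene, or each kept). The fit was varied by dropping the trend, keeping only the compared groups, adding a replicate block, or leaving out single arrays.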

Additional observations from a re-analysis of the deposited data

Results flagged for a closer look

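MMP3 (205828_at) was singled out because both MT1-MMP siRNA arrays lay under both mock arrays (48.6 and 72.4 against 99.3 and 110.0) while both alpha3 siRNA arrays lay above them (214 and 127). The log2 fold change of MT1-MMP siRNA against alpha3 siRNA was -1.11, and this difference did not pass the threshold (limma adjusted p = 0.0725). No other member had both siRNA groups outside the mock arrays in opposite directions. Of all 19065 probe sets, 45% had arrays that did not overlap between the siRNA groups, a looser condition that leaves the mock arrays aside. The share of all probe sets with the flagged pattern was not counted.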

How the results depend on the processing

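Of 393 recomputed fold changes of the members, 369 kept their direction and stayed past or short of the threshold as before, 24 changed sign, and none passed the threshold. Where the arrays of 2 groups did not overlap, leaving out 1 array could not turn the sign. Some settings, such as dropping the trend, leave a fold change itself unchanged. Counts of called genes moved more. With MT1-MMP siRNA against mock, limma called 0 genes (1160 at an unadjusted p under 0.05), against 1 under quantile normalization, 3 with an offset of 1, 6 with an offset of 100, 2 with the mean of probe sets, 7 in the fit of only these groups, and 0 to 8 with 1 array left out. With alpha3 siRNA against mock, 2 were called, against 1 under quantile normalization, an offset of 100, no filter, every probe set, or only these groups, 0 with an offset of 1 or a filter at the 60th percentile, and 0 to 9 with 1 array left out. With MT1-MMP siRNA against alpha3 siRNA, 112 were called, against 69 with an offset of 1, 22 without a filter, 178 with the filter at the 60th percentile, 1 with every probe set, 72 without the trend, and 0 to 83 with 1 array left out. The cause of these moves was not tested.

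Nothing in the labels says that equal replicate numbers pair the arrays, and deviations of equal numbers correlated at 0.13 between the siRNA groups and at -0.18 between each of them and mock. With the replicate number as a block, 11, 4 and 114 genes were called in the 3 comparisons, and no member was.

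Members that changed sign with 1 array left out ranged as follows. MMP9 ran from -2.07 to 0.38 with MT1-MMP siRNA against mock, from -1.94 to 0.50 with alpha3 siRNA against mock, and from -0.65 to 0.41 between the siRNAs. MMP15 ran from -0.064 to 0.50, from -0.079 to 0.081, and from -0.065 to 0.50 in the same order. With alpha3 siRNA against mock MMP1 ran from -0.57 to 0.68, MMP16 from -0.25 to 0.064, MMP17 from -0.069 to 0.41, and MMP11 from -0.34 to 0.12, and MMP11 between the siRNAs ran from -0.32 to 0.14. With alpha3 siRNA against mock MMP15 was also at -0.054 under quantile normalization and MMP1 at -0.038 with an offset of 1. Other probe sets turned MMP16 to -0.21 and -0.013 with MT1-MMP siRNA against mock, to 0.038, 0.13 and 0.21 with alpha3 siRNA against mock, and to -0.24 and -0.23 between the siRNAs, and MMP11 to 0.13 and 0.0016 with alpha3 siRNA against mock. MMP1, MMP10 and MMP15 lay under the filter, so their values come from fits without it, and the filter at the 60th percentile gave no value for some members.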

Other observations

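Genes for substrates and surface partners of the metalloproteinases were also read. Of 17 listed substrates 12 were measured and 11 lay above 0 with MT1-MMP siRNA against mock. Their median log2 fold change was 0.49, where the median over all 8045 genes was 0.0024. Of the 12 substrates, limma called 0 (4 at an unadjusted p under 0.05), where 0% of all genes were called and 14.4% had such a p. COL4A1, a chain of basement membrane collagen, had 2076 and 1526 on the MT1-MMP siRNA arrays, 1696 and 1137 on the alpha3 siRNA arrays, and 1093 and 922 on the mock arrays, so that both siRNA groups lay above mock (limma adjusted p = 0.220 for the first and 0.870 for the second). COL4A2, its partner chain, had 1653 and 1217, 1766 and 1157, and 1082 and 1019 in the same order of groups. Fibronectin (FN1) had 12634.9 and 9354 on the MT1-MMP siRNA arrays, 5237 and 1882 on the alpha3 siRNA arrays, and 1869 and 5529 on the mock arrays (log2 fold change 1.75 for MT1-MMP siRNA against mock, SE 0.55, limma adjusted p = 0.228). SPARC had 8295 and 5052, 4199 and 3063, and 3189 and 3287 in the same order of groups, and AGRN, the proteoglycan agrin, had 1362 and 1247, 926 and 922, and 752 and 883. Tenascin C (TNC) had 237 and 195 with alpha3 siRNA against 136 and 96.8 in mock. Of 11 listed surface partners 10 were measured and 9 lay above 0 with MT1-MMP siRNA against mock, with a median of 0.37. Of the 10, limma called 0 (2 at an unadjusted p under 0.05), where 0% of all genes were called and 14.4% had such a p. CD44, which binds hyaluronan, had signals of 7318 and 6665 on the MT1-MMP siRNA arrays, 4739 and 4508 on the alpha3 siRNA arrays, and 3735 and 4394 on the mock arrays (log2 fold change 0.78 for MT1-MMP siRNA against mock, limma adjusted p = 0.148). The integrin subunit ITGB1 had 7820 and 5868, 4057 and 4429, and 3894 and 4296 in the same order of groups, and ITGAV lay above mock on all siRNA arrays. ITGA2 had 2301 and 1505 on the MT1-MMP siRNA arrays against 1195 and 300 on the alpha3 siRNA arrays. Its mock arrays, at 489 and 1966, overlapped both siRNA groups. LRP1, an endocytic receptor that clears metalloproteinases, had 115 and 82.1 on the MT1-MMP siRNA arrays, 28 and 18.4 on the alpha3 siRNA arrays, and 39.6 and 74.4 on the mock arrays. Its log2 fold change was 1.23 for MT1-MMP siRNA against alpha3 siRNA (SE 0.29, limma adjusted p = 0.0677), which did not pass. Like MMP17, LRP1 passed the filter only through the MT1-MMP siRNA arrays, so that its being among the tested genes already leans on that group.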
